A study of Homo sapiens with 5 samples.

Results

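Potassium channel genes were taken by symbol, as protein-coding RefSeq genes of GRCh38.p14 (an hg38 assembly) named KCN plus a further letter. The rule gave 96 genes of 19974 on the autosomes and the X chromosome, in 19 groups by the letter that follows KCN. HT1376, an established line from a human bladder carcinoma, was given 250 nM CPI-0209, an EZH2 inhibitor, or the vehicle DMSO for 8 days and fixed with formaldehyde. The 8 days are those of the treatment protocol, while the extract protocol speaks of 4 and 8 days, so the time of each library rests on the treatment protocol alone. Chromatin immunoprecipitation sequencing (ChIP-seq) with an antibody against H3K27me3 or EZH2 gave 4 libraries: H3K27me3 in CPI-0209 cells, H3K27me3 in DMSO cells, EZH2 in CPI-0209 cells and EZH2 in DMSO cells. An input library was not used here. There was 1 library per group, so nothing below has a replicate check and no test between CPI-0209 and DMSO was possible. Each library is a list of called intervals with no score or read count, so depth is unknown and the absence of an interval does not show absence of the mark. H3K27me3 intervals covered 113.8 Mb of the genome in CPI-0209 cells and 315.1 Mb in DMSO cells, and EZH2 intervals covered 226.3 Mb in CPI-0209 cells and 193.4 Mb in DMSO cells.

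Potassium channels let potassium ions leave or enter the cell along their gradient and set the resting potential, the shape of action potentials and the volume and salt transport of epithelia. Voltage-gated, inward-rectifier, tandem-pore-domain and calcium-activated channels are built from different pore subunits, and auxiliary subunits adjust their gating and traffic. Polycomb repressive complex 2, whose catalytic subunit is EZH2, places H3K27me3, and the mark is known for covering CpG-rich promoters of tissue-restricted genes in cells that do not use them. Many potassium channels are such genes, being restricted to nerve, heart, kidney, ear or smooth muscle.

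H3K27me3 was called near at least 1 end of most of these genes, and less often in CPI-0209 cells than in DMSO cells. An end was called marked when an interval overlapped the window of 2 kb either side of it by at least 1 bp. At least 1 end was marked at 52 of the 96 genes in CPI-0209 cells and at 65 in DMSO cells, beside 21.7% and 31.3% of all protein-coding genes in the same lists. Both ends were marked at 20 genes in CPI-0209 cells and at 34 in DMSO cells, beside 8.68% and 15.2% of all genes. Among the 65 genes marked in DMSO cells, 52 (80.0%) still had a marked end in CPI-0209 cells, where the share over all genes was 68.0%. None of the 31 genes without a marked end in DMSO cells had one in CPI-0209 cells. Such genes were rare in general. Over all genes, 79 had 1 end and 9 had both ends marked in CPI-0209 cells alone, while 13628 were unmarked in both lists. CPI-0209 counts were also the lower ones with windows of 1 kb or 5 kb, with at least 50% of the window covered and with stretches under 2 intervals of a list (19 genes in CPI-0209 cells and 53 in DMSO cells with at least 1 end). The order turned with the DMSO list shortened to the covered length of the CPI-0209 list by keeping its widest intervals, which can only lower the DMSO counts. At least 1 end was then marked at 52 genes in CPI-0209 cells and 24 in DMSO cells, and both ends at 20 in CPI-0209 cells and 15 in DMSO cells.

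The 34 genes with both ends marked in DMSO cells divided into 20 kept (both ends also in CPI-0209 cells), 11 partly kept (1 end) and 3 lost (neither end), classes that held 8.53%, 4.12% and 2.51% of all genes. Kept and lost describe interval calls, and the class sizes depended on the lists: there were 12 kept, 2 partly kept, 1 lost and 5 gained with the DMSO list shortened as above, and 4 kept and 14 lost with stretches under 2 intervals. Of all genes with both ends marked in DMSO cells they held 56.3%, 27.2% and 16.6%, so the 58.8% kept among the channel genes lay near the background. Of 31 further genes with 1 marked end in DMSO cells, 21 had a marked end in CPI-0209 cells (8.55% of all genes were of this kind) and 10 did not (7.52%). The remaining 31 were unmarked in both, as were 68.2% of all genes. The channel genes were longer than most, with a median gene record of 39.2 kb against 24.2 kb over all genes. By length, the share with both ends marked was above that of all genes in both lists in the 3 shorter groups. Among genes under 10 kb, both ends were marked at 5 of 20 in CPI-0209 cells (15.4% of all genes of that length) and at 11 in DMSO cells (23.6%). From 10 to 50 kb the counts were 8 of 34 in CPI-0209 cells (6.73% of all) and 12 in DMSO cells (12.8%). From 50 to 200 kb they were 5 of 23 in CPI-0209 cells (5.1% of all) and 9 in DMSO cells (10.5%). At 200 kb and longer they were 2 of 19 in CPI-0209 cells (5.16% of all) and 2 in DMSO cells (10.7%). The DMSO share there was at the background and the CPI-0209 share above it, on 2 genes in each list. At least 1 end was marked at 7 of these 19 in CPI-0209 cells (33.0% of all genes of that length) and at 11 in DMSO cells (44.3%). The CPI-0209 share at 1 or more ends was thus near the background.

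**Figure D1:**
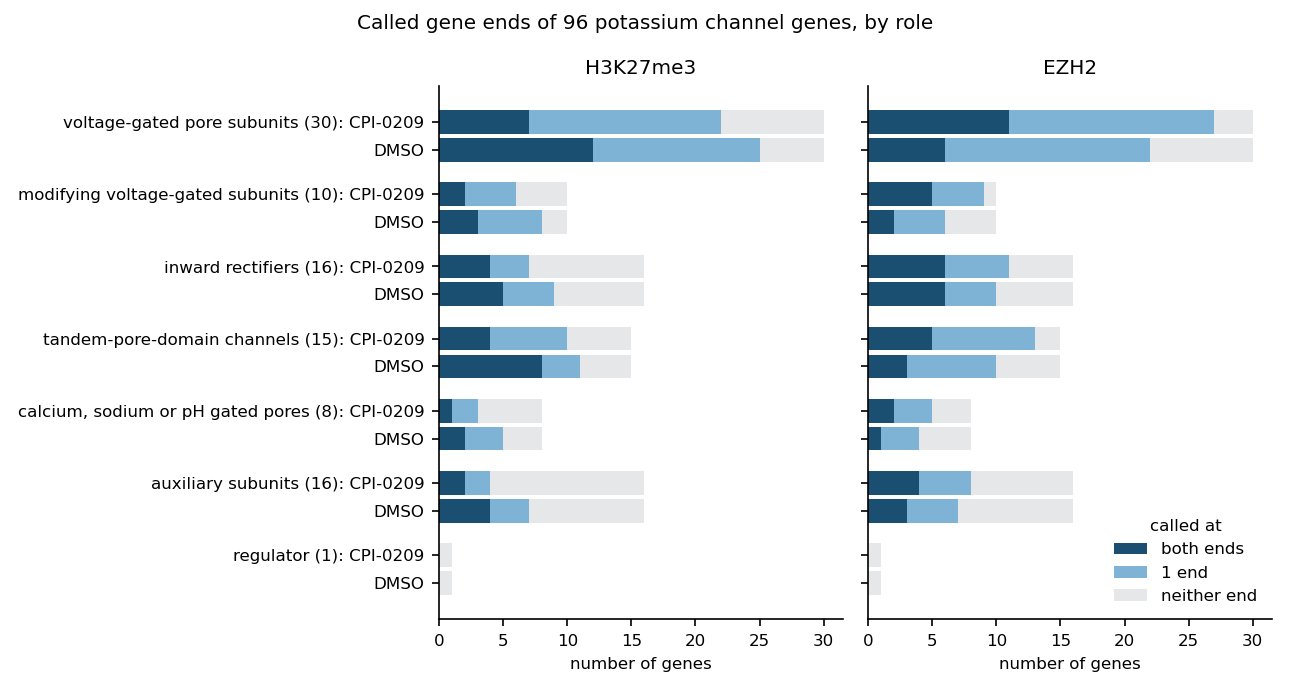
Number of potassium channel genes (x axis) with H3K27me3 (left) or EZH2 (right) called at both ends, 1 end or neither end of the gene record, for CPI-0209 and DMSO cells, by role (number of genes in brackets). H3K27me3 was called at 1 or more ends of 22 voltage-gated pore genes in CPI-0209 cells and 25 in DMSO cells, and of 4 auxiliary subunit genes in CPI-0209 cells and 7 in DMSO cells.

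The voltage-gated pore subunits open on depolarisation and carry the repolarising currents of nerve and heart. At least 1 end carried H3K27me3 at 22 of these 30 genes in CPI-0209 cells and at 25 in DMSO cells, and both ends at 7 in CPI-0209 cells and 12 in DMSO cells. For this and the following roles, the shares of all genes were 21.7% and 31.3% at 1 or more ends. At both ends they were 8.68% in CPI-0209 cells and 15.2% in DMSO cells. KCNH2, the pore of the rapid delayed rectifier of the heart (chromosome 7, 150944961 to 150978321), had H3K27me3 over 99.3% of its gene record in CPI-0209 cells and 100% in DMSO cells, and EZH2 over 100% in both. KCNA5, which carries the ultrarapid current of atrial muscle (chromosome 12, 5043879 to 5046788), was covered over 100% in both, within a domain of 3.8 kb in CPI-0209 cells and 12.8 kb in DMSO cells. A domain here is a run of overlapping intervals merged, and the widest one that touches an end window is given.

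KCNQ1, the pore of the slow delayed rectifier and of epithelial potassium channels (chromosome 11, 2445008 to 2849105), lies in an imprinted region. H3K27me3 covered 62.3% of its 404-kb record in CPI-0209 cells and 75.2% in DMSO cells, in 9 and 7 pieces, and EZH2 covered 73.3% in CPI-0209 cells and 69.1% in DMSO cells. KCNB2, a delayed rectifier pore, was kept as well, although its long record was covered over 1.09% in CPI-0209 cells and 1.78% in DMSO cells, near its ends alone. A kept call at both ends therefore says nothing of coverage between them.

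Shaker-related genes on chromosome 12 took another class than their neighbour KCNA5. The KCNA5 record of 2.91 kb is shorter than those of KCNA1 (8.35 kb) and KCNA6 (41.8 kb). Of the 12.8-kb DMSO domain at KCNA5, 29.7% was also called in CPI-0209 cells. That share was 41.8% for the 11.0-kb domain at KCNA1. For the domains at the start and far end of KCNA6 it was 17.7% and 9.21%. KCNA1, an axonal channel, had H3K27me3 over 34.7% of its record in CPI-0209 cells and 92.1% in DMSO cells. KCNA6 had 4.47% in CPI-0209 cells and 53.1% in DMSO cells, and KCNA7 on chromosome 19 had 35.8% in CPI-0209 cells and 73.5% in DMSO cells. Each of the 3 had 1 marked end in CPI-0209 cells and was partly kept, as was KCNC4, a fast-inactivating channel, with 12.3% in CPI-0209 cells and 63.9% in DMSO cells. KCNA10 (chromosome 1, 110517217 to 110519175) was the lost member. It lay in a 37.0-kb DMSO domain, from 110492601 to 110529600, none of which was called in CPI-0209 cells and none of which carried EZH2 in DMSO cells. EZH2 covered 23.8% of that stretch in CPI-0209 cells. KCND3, which carries the transient outward current, was marked at its start and not at its far end in both conditions, with H3K27me3 over 7.34% of its record in CPI-0209 cells and 55.0% in DMSO cells. Of the KCNH genes, 6 of 8 had a marked end in both conditions, and of the KCNA letter group, which includes 3 KCNAB genes, 7 of 11 in CPI-0209 cells and 8 in DMSO cells.

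The modifying subunits (KCNF, KCNG, KCNS and KCNV) form no channel alone and join other voltage-gated subunits. H3K27me3 marked at least 1 end at 6 of 10 in CPI-0209 cells and 8 in DMSO cells. KCNF1 (chromosome 2, 10911934 to 10914225) was fully covered by H3K27me3 and EZH2 in both conditions, within an H3K27me3 domain of 25.4 kb in CPI-0209 cells and 50 kb in DMSO cells. KCNG4 (chromosome 16, 84218657 to 84240012) was also fully covered. Its domain measured 29.8 kb in CPI-0209 cells and 258.2 kb in DMSO cells, and the DMSO domain was cut into 21 pieces that held 78.9% of its length in CPI-0209 cells. KCNS2 was partly kept, with 55.0% in CPI-0209 cells and 100% in DMSO cells, while its EZH2 covered 99.1% in CPI-0209 cells and 65.2% in DMSO cells. KCNV1 had no H3K27me3 in CPI-0209 cells and 21.2% of its record covered in DMSO cells.

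Inward rectifiers (KCNJ) hold cells near the potassium equilibrium potential. H3K27me3 marked at least 1 end at 7 of 16 in CPI-0209 cells and 9 in DMSO cells. The kept genes were KCNJ4, KCNJ5, KCNJ10 and KCNJ12. KCNJ4 had 94.9% of its record covered in CPI-0209 cells and 100% in DMSO cells. KCNJ10, the glial channel, had 74.5% in CPI-0209 cells and 100% in DMSO cells. Its 54.2-kb DMSO domain reaches KCNJ9 as well, so this pair is 1 event. KCNJ12 had 62.3% in CPI-0209 cells and 72.4% in DMSO cells, and because KCNJ12 and KCNJ18 are near-identical copies, reads could be placed on either and both are uncertain.

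The adjacent genes KCNJ5 and KCNJ1 on chromosome 11 took different classes. KCNJ5, a subunit of the channel that acetylcholine opens in the atrium (128891356 to 128921163), had H3K27me3 over 68.5% in CPI-0209 cells and 100% in DMSO cells, with both ends marked in both. KCNJ1, the potassium secretion channel of the kidney (128838020 to 128867296), had 27.3% in CPI-0209 cells and 92.8% in DMSO cells and was lost at both ends, so its remaining H3K27me3 lay inside the record. EZH2 covered 51.9% of KCNJ1 in CPI-0209 cells and 62.8% in DMSO cells. KCNJ11, the pore of the ATP-sensitive channel (chromosome 11, 17385248 to 17389346), was covered over 100% by EZH2 in both conditions, yet H3K27me3 covered none of it in CPI-0209 cells and 3.56% in DMSO cells. The DMSO domain that reached its end runs on from 17389201 to 17484400 over the neighbouring ABCC8, the regulatory partner of KCNJ11, which had H3K27me3 over 65.6% in CPI-0209 cells and 100% in DMSO cells. KCNJ2, a widely expressed inward rectifier, had no H3K27me3 in either condition and EZH2 over 6.36% of its record in CPI-0209 cells alone.

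Tandem-pore-domain genes (KCNK) carry background currents. At least 1 end was marked at 10 of 15 in CPI-0209 cells and 11 in DMSO cells, and both ends at 4 in CPI-0209 cells and 8 in DMSO cells. The fully covered genes in both conditions were KCNK4, a mechanosensitive channel, and KCNK15. KCNK3, an acid-sensitive channel (chromosome 2, 26692722 to 26733420), had H3K27me3 over 83.3% in CPI-0209 cells and 77.9% in DMSO cells, the single member with a higher value in CPI-0209 cells. Its EZH2 covered 96.6% in CPI-0209 cells and 50.8% in DMSO cells. KCNK17 was kept with 33.8% in CPI-0209 cells and 53.3% in DMSO cells. It shares an 8.00-kb DMSO domain with KCNK16, which had 12.3% in CPI-0209 cells and 90.5% in DMSO cells.

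KCNK12 had H3K27me3 over 13.3% of its record in CPI-0209 cells and 96.4% in DMSO cells, KCNK13 2.10% in CPI-0209 cells and 36.2% in DMSO cells, and KCNK5, an alkaline-activated channel of epithelia, 8.58% in CPI-0209 cells and 71.9% in DMSO cells. These 3 genes, like KCNK16, were partly kept. KCNK1 had no H3K27me3 in either list and EZH2 over 8.72% in CPI-0209 cells and 8.04% in DMSO cells. KCNK2 had neither mark at its ends, and H3K27me3 inside its record over 1.12% in CPI-0209 cells and 5.53% in DMSO cells.

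The calcium-, sodium- or pH-gated pores (KCNMA, KCNN, KCNT and KCNU) had a marked end at 3 of 8 genes in CPI-0209 cells and 5 in DMSO cells. KCNT1, a sodium-activated channel (chromosome 9, 135702185 to 135795502), was fully covered by H3K27me3 and EZH2 in both, in an H3K27me3 domain of 138.4 kb in CPI-0209 cells and 155.6 kb in DMSO cells. KCNN3, a small-conductance calcium-activated channel (chromosome 1, 154697455 to 154870281), was partly kept. It had 52.1% in 12 pieces in CPI-0209 cells and 100% in 1 piece in DMSO cells, where its domain measured 218.0 kb. KCNMA1, the big-conductance channel of smooth muscle (chromosome 10, 76869602 to 77637808), had 114.8 kb of H3K27me3 in 12 pieces in DMSO cells, 14.9% of its record, and none in CPI-0209 cells. EZH2 at KCNMA1 covered 2.21% in CPI-0209 cells and 1.3% in DMSO cells. KCNN4, the intermediate-conductance channel of epithelia and lymphocytes, had no H3K27me3 in either list, and EZH2 touched its start in DMSO cells alone. KCNU1, a sperm channel, had no interval of either target.

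Auxiliary subunits (KCNAB, KCNE, KCNIP and KCNMB) bind pore subunits and adjust their gating. At least 1 end was marked least often here among the groups of 8 or more genes, at 4 of 16 in CPI-0209 cells and 7 in DMSO cells. Beside 21.7% and 31.3% of all genes, the CPI-0209 share was near the background. KCNIP3, a calcium-binding partner of KCND channels, had H3K27me3 over 78.4% of its record in CPI-0209 cells and 99.3% in DMSO cells. KCNE4 had 64.1% in CPI-0209 cells and 100% in DMSO cells, and KCNE3 had 12.2% in CPI-0209 cells and 94.0% in DMSO cells. KCNE5 (X chromosome, 109623700 to 109625172) was lost, from a 6.60-kb DMSO domain, while EZH2 was called over 93.1% of it in CPI-0209 cells and 79.6% in DMSO cells. KCNE1, the partner of KCNQ1 in the heart, had no interval in any of the 4 lists. KCNMB1, the smooth muscle partner of KCNMA1, had no H3K27me3 in CPI-0209 cells and 67.8% in DMSO cells, with no EZH2 in either. The KCNMB1 record lies inside that of KCNIP1, so this coverage counts in both records. KCNRG, which restrains channel assembly, had no interval.

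**Figure D2:**
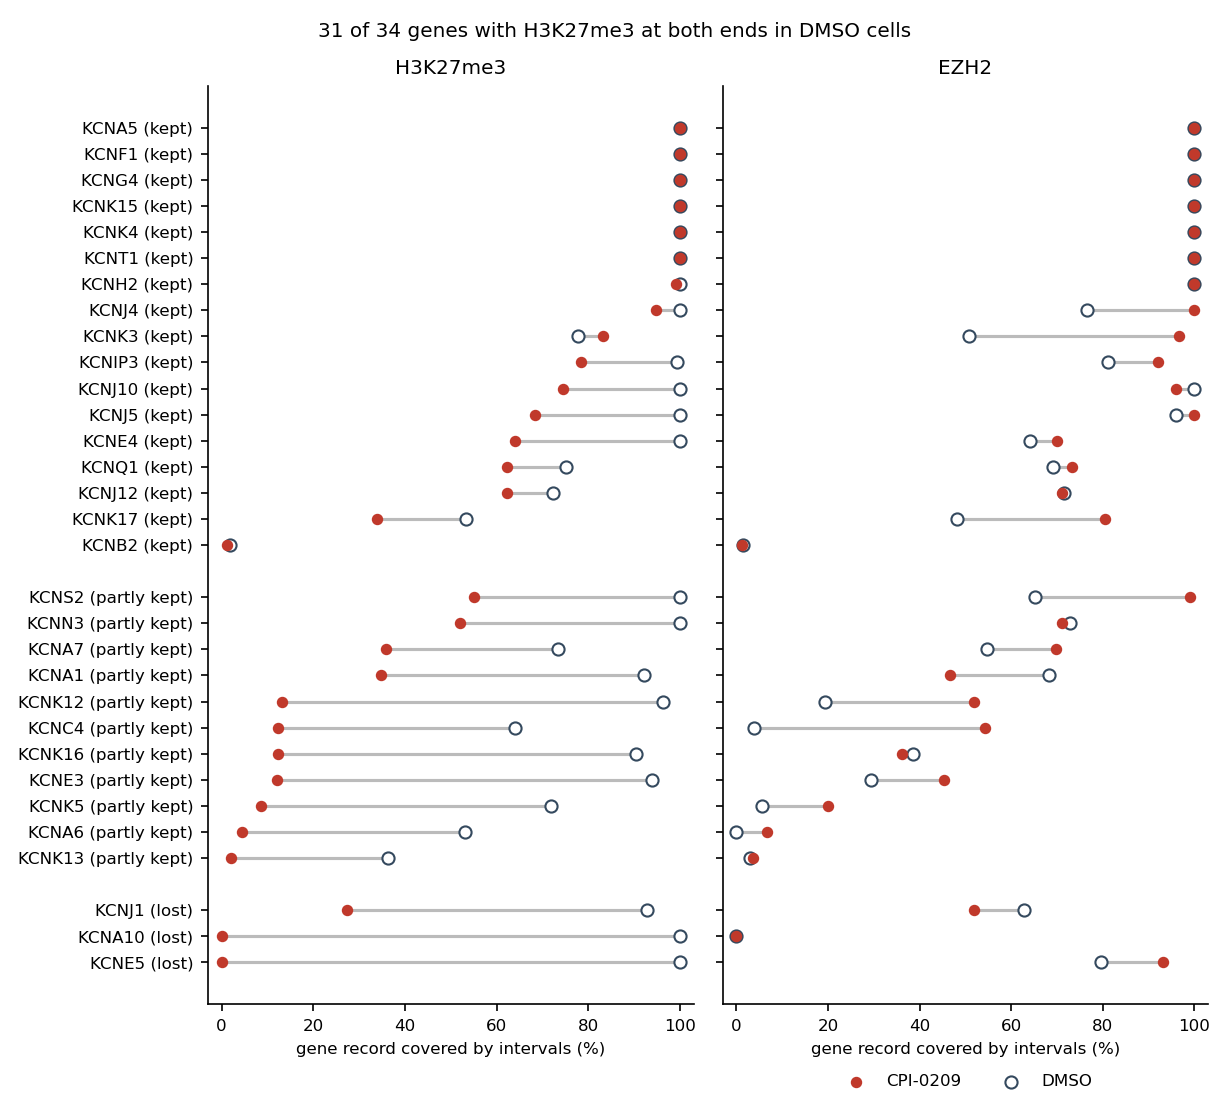
Percent of the gene record (x axis) covered by H3K27me3 (left) or EZH2 (right) intervals in CPI-0209 cells (filled) and DMSO cells (open) at 31 of the 34 channel genes with H3K27me3 at both ends in DMSO cells, grouped as kept, partly kept and lost. H3K27me3 was lower or equal in CPI-0209 cells at each gene shown except KCNK3 (83.3% in CPI-0209 cells and 77.9% in DMSO cells), while EZH2 moved in both directions.

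Over gene bodies, H3K27me3 summed to 1193 kb in CPI-0209 cells and 2284 kb in DMSO cells over the 96 records, a ratio of 0.522. Positions shared by overlapping records, as at KCNMB1 and KCNIP1, counted in each, here and for EZH2 below. Of 68 genes with any H3K27me3 in the record, coverage was lower in CPI-0209 cells at 61, equal at 6 and higher at 1. Genes by direction, here and for domain width below, and pieces were not counted over all genes. The whole H3K27me3 list was shorter in CPI-0209 cells (113.8 Mb against 315.1 Mb), so these counts are not particular to channel genes. At least 50% of the record was covered at 22 genes in CPI-0209 cells and 42 in DMSO cells, beside 8.51% and 16.4% of all genes. The median coverage was 1.99% in CPI-0209 cells and 28.1% in DMSO cells, where the median over all genes was 0 in both. With the DMSO list shortened, the DMSO median was 0, below that of CPI-0209 cells, and 23 genes had at least 50% covered in DMSO cells. At the 20 kept genes the widest domain had a median of 23.9 kb in CPI-0209 cells and 50.4 kb in DMSO cells and was narrower in CPI-0209 cells at 20 of 20. Over all kept genes the medians were 12.1 kb in CPI-0209 cells and 39.4 kb in DMSO cells. The H3K27me3 pieces within those records numbered 54 in CPI-0209 cells and 33 in DMSO cells. At the 21 genes with exactly 1 marked end in each condition, the medians were 4.40 kb in CPI-0209 cells and 11.6 kb in DMSO cells, narrower at 21 of 21, close to the medians of 4.2 kb in CPI-0209 cells and 12 kb in DMSO cells over all genes of this class. Together the channel genes' end windows touched 81 DMSO domains, of which 18 held no H3K27me3 interval in CPI-0209 cells, 38 held 1 and 25 held 2 or more. Another protein-coding gene record reached into a marked end window at 12 of the genes in DMSO cells, and which gene such a mark belongs to cannot be told apart.

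EZH2 behaved otherwise. It was called at 1 or more ends of 73 channel genes in CPI-0209 cells and 59 in DMSO cells, beside 71.5% and 54.6% of all genes, which are close to the shares of 76.0% and 61.5% among the channel genes. With the CPI-0209 EZH2 list shortened to the covered length of the DMSO list, the counts were 51 in CPI-0209 cells and 59 in DMSO cells. Both ends carried EZH2 at 33 genes in CPI-0209 cells and 21 in DMSO cells, beside 25.9% and 17.5% of all genes. The 21 genes with EZH2 at both ends in DMSO cells were called there again in CPI-0209 cells. This was common over all genes too, at 3067 of the 3489 with EZH2 at both ends in DMSO cells (15.4% of all genes). At least 50% of the record was under EZH2 at 36 genes in CPI-0209 cells and 30 in DMSO cells, beside 20.2% and 15.6% of all genes. EZH2 was new at 16 of 37 genes without it in DMSO cells (43.2%, against 43.0% over all genes), and 2 of them, KCNK7 included, had it newly at both ends, as did 4.13% of all genes. KCNK7 (chromosome 11, 65592836 to 65595800) had EZH2 over 100% of its record in CPI-0209 cells and none in DMSO cells, without H3K27me3 in either, and its end windows hold parts of EHBP1L1 and MAP3K11. Summed over the 96 records EZH2 covered 1652 kb in CPI-0209 cells and 1389 kb in DMSO cells, a ratio of 1.19, with coverage higher in CPI-0209 cells at 41 genes and lower at 23. These directions were not counted over all genes, and the whole EZH2 list was longer in CPI-0209 cells (226.3 Mb against 193.4 Mb).

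Read end by end, H3K27me3 in CPI-0209 cells was called mostly where EZH2 was called in DMSO cells. Of 99 marked ends in DMSO cells, 71 carried EZH2 there in DMSO cells and 66 of these (93.0%) were still marked in CPI-0209 cells. Of the 28 marked ends without EZH2 in DMSO cells, 6 (21.4%) were. Over all genes these shares were 84.1% and 21.7%. Among the 72 ends marked in CPI-0209 cells, EZH2 was called at 71 in CPI-0209 cells and at 66 in DMSO cells, beside 97.4% and 88.7% of such ends over all genes. At the 27 ends marked in DMSO cells alone, EZH2 was called at 14 in CPI-0209 cells and 5 in DMSO cells, beside 50% and 30.1% over all genes. The CPI-0209 shares in both classes of ends were near the background. Counts per gene took each target at 1 or more ends, not always the same end. In CPI-0209 cells 52 genes had both targets, 21 had EZH2 alone and none had H3K27me3 alone, beside 21.4%, 50% and 0.295% of all genes. In DMSO cells 53 had both, 6 had EZH2 alone and 12 had H3K27me3 alone, beside 23.4%, 31.2% and 7.97% of all genes. KCNH6 counted among the 53, with H3K27me3 at its start alone and EZH2 at its far end alone in DMSO cells. H3K27me3 without EZH2 in CPI-0209 cells was thus rare among all genes as well. KCNMA1, KCNMB1, KCNK18, KCND1 and KCNIP1 were among these 12.

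A promoter table from RefSeq gave the strand of 72 channel genes and 15812 genes in all, so that the start end could be told from the far end. Start ends carried H3K27me3 at 33 of the 72 genes in CPI-0209 cells and 44 in DMSO cells, beside 16.9% and 24.4% of all genes. Far ends carried it at 15 in CPI-0209 cells and 26 in DMSO cells, beside 10.8% and 19.2% of all genes. Thus 33 of 44 marked starts (75.0%) and 15 of 26 marked far ends (57.7%) were still marked in CPI-0209 cells, against 67.7% and 55.7% over all genes. Of the 23 genes with both ends marked in DMSO cells, 7 kept the start alone and 1 kept the far end alone. This split was not counted over all genes, where starts were also still marked more often than far ends (67.7% against 55.7%). The 7 were KCNA6, KCNA7, KCNC4, KCNE3, KCNK13, KCNK5 and KCNN3. The far end alone was kept at KCNK16, next to the start of KCNK17. At the start position itself, 43.1% of the genes were covered by H3K27me3 in CPI-0209 cells and 54.2% in DMSO cells. At 5 kb into the gene the shares were 22.2% in CPI-0209 cells and 45.8% in DMSO cells, and at 5 kb before it 12.5% in CPI-0209 cells and 36.1% in DMSO cells. The remaining mark was thus centred on starts, with the larger differences on either side. Over all genes the start position was covered at 14.8% in CPI-0209 cells and 20.5% in DMSO cells, and the position 5 kb inside at 7.15% in CPI-0209 cells and 16.1% in DMSO cells.

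**Figure D3:**
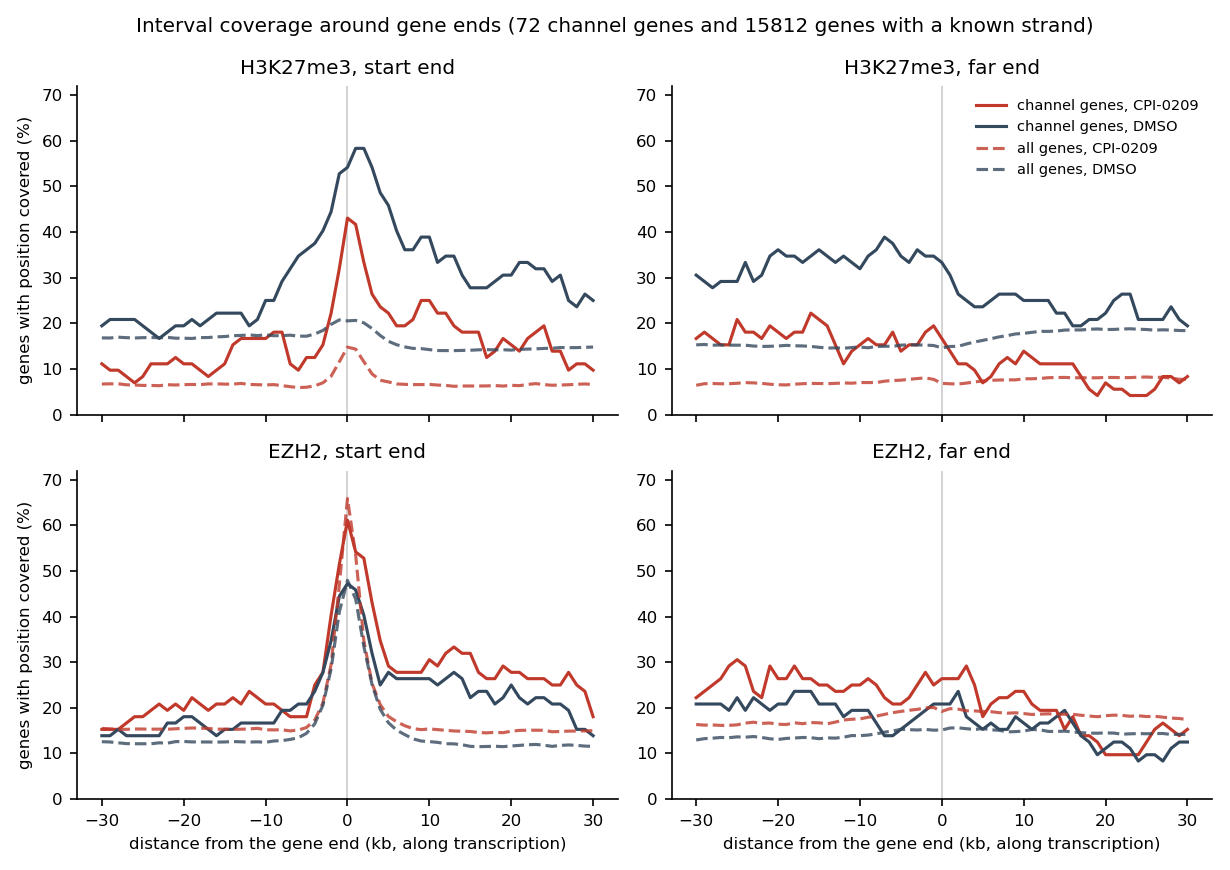
Percent of genes (y axis) whose position at a given distance in kb from the start end (left) or far end (right) is covered by H3K27me3 (top) or EZH2 (bottom), for 72 channel genes (solid) and 15812 genes with a known strand (dashed), in CPI-0209 and DMSO cells; positive distances run with transcription. H3K27me3 over the channel genes' starts stood at 43.1% in CPI-0209 cells and 54.2% in DMSO cells, and EZH2 at 61.1% in CPI-0209 cells and 47.2% in DMSO cells.

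By median, channel gene starts marked in both lists had more CpG before them than starts marked in DMSO alone or in neither list. The medians of the latter classes were close to each other. For the outermost start listed in the promoter table, 34 of the 72 genes had H3K27me3 within 2 kb in both lists, 10 in DMSO alone and 28 in neither. In the 250 bases before these starts, the median ratio of CpG dinucleotides observed to those expected from C and G content was 0.74 in the 34, 0.38 in the 10 and 0.35 in the 28, and median GC content was 73.2%, 57.2% and 59.8%. A ratio of at least 0.6 was found in 24 of 34 (70.6%), 1 of 10 (10%) and 9 of 28 (32.1%). The same classes of all genes gave 61.0%, 43.3% and 65.7%, so the first class lay nearest its background. Over all genes the medians were 0.70, 0.47 and 0.75, so unmarked genes in general were CpG-rich whereas the 28 unmarked channel genes were mostly CpG-poor. EZH2 was called within 2 kb of 34 of the 34 starts marked in both lists in CPI-0209 cells (all genes 98.4%) and 31 in DMSO cells (91.2%, all genes 89.3%). Both shares were near the background. At the 10 starts marked in DMSO alone it was called at 6 in CPI-0209 cells (60%, all genes 61.2%) and 2 in DMSO cells (20%, all genes 35.9%). It was called at 7 of the 28 unmarked starts (25.0%) in CPI-0209 cells and 2 (7.14%) in DMSO cells, against 63.8% in CPI-0209 cells and 43.5% in DMSO cells at unmarked starts of all genes.

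**Figure D4:**
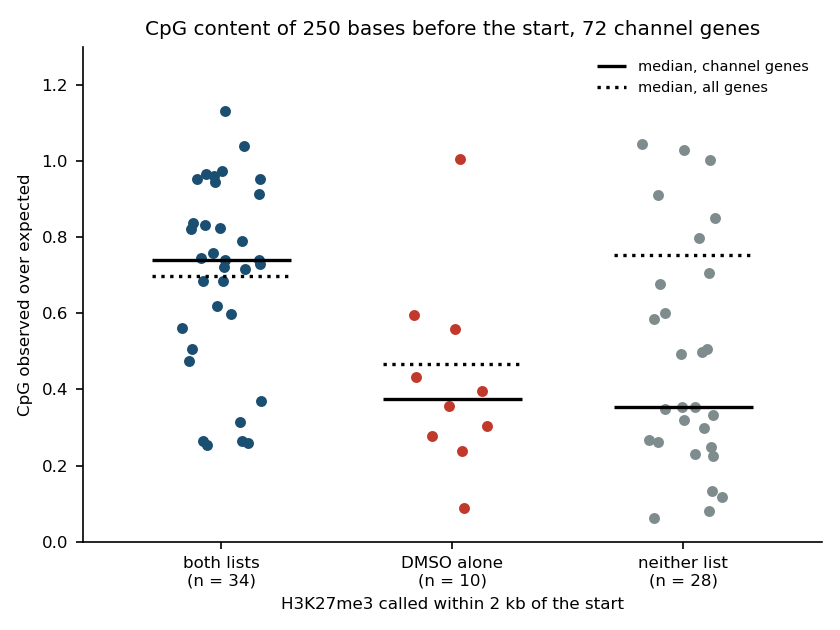
Ratio of observed to expected CpG (y axis) in the 250 bases before the start of 72 channel genes, by whether H3K27me3 was called within 2 kb of the start in both lists, in DMSO alone or in neither (1 point per gene, bars are medians). The medians of the channel genes were 0.74, 0.38 and 0.35, and the single gene above 0.6 in the middle group is KCNMA1.

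The range is shown by 6 promoters, chosen for having many or few CpGs within the starts marked in both lists (KCND3 with 44, KCNH2 with 29, KCNC2 with 3) and in DMSO alone (KCNMA1 with 46, KCNA10 with 3, KCNK16 with 1). They are the 250 bases before the start in GRCh38.p14, from RefSeq, on the minus strand at chr1:111989669-111989918, chr7:150978322-150978571, chr12:75209840-75210089, chr10:77637809-77638058, chr1:110519176-110519425 and chr6:39322969-39323218. Capitals mark CpG dinucleotides.
KCND3: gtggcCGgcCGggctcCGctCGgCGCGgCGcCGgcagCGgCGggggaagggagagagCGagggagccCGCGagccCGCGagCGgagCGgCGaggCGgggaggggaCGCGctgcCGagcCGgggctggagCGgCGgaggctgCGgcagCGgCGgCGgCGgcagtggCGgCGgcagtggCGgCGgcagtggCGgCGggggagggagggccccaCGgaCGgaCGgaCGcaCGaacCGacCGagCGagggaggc
KCNH2: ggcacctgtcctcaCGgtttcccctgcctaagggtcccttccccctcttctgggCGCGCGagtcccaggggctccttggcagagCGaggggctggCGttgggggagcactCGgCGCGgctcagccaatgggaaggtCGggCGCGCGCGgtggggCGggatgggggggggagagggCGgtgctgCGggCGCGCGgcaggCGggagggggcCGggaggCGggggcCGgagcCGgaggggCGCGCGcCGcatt
KCNC2: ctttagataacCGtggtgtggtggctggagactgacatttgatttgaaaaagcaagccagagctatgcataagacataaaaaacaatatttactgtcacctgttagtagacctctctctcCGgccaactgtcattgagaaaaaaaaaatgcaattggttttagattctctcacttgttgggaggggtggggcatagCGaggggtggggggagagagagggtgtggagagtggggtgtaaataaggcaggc
KCNMA1: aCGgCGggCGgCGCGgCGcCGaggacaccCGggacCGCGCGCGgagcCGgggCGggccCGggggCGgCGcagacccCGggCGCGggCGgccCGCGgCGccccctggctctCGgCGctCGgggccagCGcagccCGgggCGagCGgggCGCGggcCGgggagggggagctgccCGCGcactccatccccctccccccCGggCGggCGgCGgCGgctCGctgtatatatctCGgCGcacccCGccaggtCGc
KCNA10: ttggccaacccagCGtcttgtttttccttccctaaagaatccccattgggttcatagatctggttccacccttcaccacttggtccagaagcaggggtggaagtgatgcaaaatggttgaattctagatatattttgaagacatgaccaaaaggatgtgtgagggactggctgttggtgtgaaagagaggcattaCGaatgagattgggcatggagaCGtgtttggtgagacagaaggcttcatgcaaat
KCNK16: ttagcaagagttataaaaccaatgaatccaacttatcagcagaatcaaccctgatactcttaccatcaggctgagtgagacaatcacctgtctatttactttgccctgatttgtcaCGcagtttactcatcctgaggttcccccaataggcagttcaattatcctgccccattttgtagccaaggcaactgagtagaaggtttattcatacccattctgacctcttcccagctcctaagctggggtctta
KCND3 and KCNMA1 are alike in CpG number, yet H3K27me3 near the start was called in both lists at KCND3 and in DMSO cells alone at KCNMA1, where EZH2 was not called at the start in DMSO cells. KCNC2 and KCNA10 are alike in having 3 CpGs and differed in the same way, with EZH2 at the start of KCNC2 in both conditions and at that of KCNA10 in CPI-0209 cells alone. These pairs were picked after their values were seen, and other starts went the other way. KCND2 and KCNE5 had EZH2 at the start in DMSO cells and H3K27me3 in DMSO cells alone, while KCNA3, KCNA6 and KCNH6 had no EZH2 there in DMSO cells and H3K27me3 in both lists.

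Other ion channel families differed in how often they were marked. The shares of all genes with at least 1 marked end were 21.7% in CPI-0209 cells and 31.3% in DMSO cells. The calcium channel list held 26 genes taken by symbol (CACNA1, CACNA2D, CACNB and CACNG), and so not pore genes alone. H3K27me3 marked at least 1 end at 21 of these in CPI-0209 cells and 23 in DMSO cells. Of 14 sodium channel genes, 8 were marked in CPI-0209 cells and 7 in DMSO cells, with SCN9A marked in CPI-0209 cells alone. HCN and cyclic-nucleotide-gated genes gave 7 of 10 in CPI-0209 cells and 8 in DMSO cells. TRP channels gave 12 of 27 in CPI-0209 cells and 14 in DMSO cells, and chloride channels 11 of 26 in CPI-0209 cells and 12 in DMSO cells. Among 10 partners of potassium channels named otherwise, 5 were marked in CPI-0209 cells and 6 in DMSO cells. Of the 5 HCN and cyclic-nucleotide-gated genes with both ends marked in DMSO cells, 2 were kept and 3 partly kept. HCN4, the pacemaker channel, was among the kept, with H3K27me3 over 56.8% in CPI-0209 cells and 83.7% in DMSO cells.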

How the data were processed

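A service provider did the ChIP, per the labels' protocols. The submitters' processing notes name BWA, SICER and hg38 without version or role. The input library was not analysed, and its use in calling is not stated in the labels. The deposited lists give positions alone (chromosome, start, end), per the file headers. Every start and width was checked to be a multiple of 200 bp. Starts count from 0 in the lists and from 1 here. Depth is unknown. Intervals of a list can overlap, and any covered position counted once.

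Gene records and strands came from RefSeq tables of GRCh38.p14; 24 of the 96 channel genes had no promoter entry. Windows, overlap and classes are defined in the report. Scoring used Python 3.11.15 with numpy 2.4.6 and pandas 2.3.3 and was tested on simulated data. Named genes were those with both ends marked by H3K27me3, the widest domains, the highest coverage per letter, new EZH2 at both ends and 10 fixed names. Others, such as the genes listed by start end or by target and the promoters shown, were chosen after their values were seen. The genes and lists were chosen with earlier results of these data known. The TRP and chloride channel lists left out TRPC4AP, TRPC5OS and ANOS1, which encode no channel. Some genes that the naming rule selects are not reported here by name, though they remain in all counts.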

Additional observations from a re-analysis of the deposited data

How the results depend on the processing

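Of 112 values recomputed under an alternative, 88 stayed within 1.5 times the reported value. Windows of 1 kb, at least 50% of the window covered, 2 kb added to the gene record, 1 gene per DMSO domain, any listed start and genes of 10 kb or longer moved no value by more. The alternatives of any listed start, of genes of 10 kb or longer, and of 50% of the window under EZH2 were chosen after seeing the data. With 5 kb windows, 17 genes were partly kept and 5 lost.

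Stretches under 2 intervals of the same list gave H3K27me3 at 1 or more ends of 19 genes and both ends of 4 in CPI-0209 cells, with 4 kept and 14 lost, at least 50% of the body at 4 genes in CPI-0209 cells, and median body coverage of 0 in CPI-0209 cells and 5.45% in DMSO cells. For EZH2 they gave both ends at 17 genes in CPI-0209 cells and 5 in DMSO cells, 1 or more ends at 24 and at least 50% of the body at 6 in DMSO cells, and medians of 1.6% in CPI-0209 cells and 0 in DMSO cells.

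Shortening the longer list of each target to the covered length of the other by its widest intervals turned the order for H3K27me3. It left 24 genes marked at 1 or more ends and 15 at both in DMSO cells (against 52 and 20 in CPI-0209 cells), with 12 kept, 2 partly kept, 1 lost and 5 gained, at least 50% of the body at 23 genes and a median of 0. For EZH2 at 1 or more ends the order turned too, at 51 genes in CPI-0209 cells and 59 in DMSO cells, and the CPI-0209 median body coverage was 3.74%. This shortening removes narrow intervals from 1 list alone and can lower its counts but not raise them. No paired analysis was possible because each group has 1 library.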
